A study of Mus musculus with 7 samples.

Results

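Crosslink positions found in all 5 Argonaute libraries are described here: 487 of the 14054 positions in the deposited table of neonatal mouse retina, lying in 415 of the 4939 genes that held any position (8.4% of crosslinked genes). They were selected on a score that counts the libraries sharing a position, so their recurrence is what chose them and is not a result. Just below that threshold, 891 positions were shared by 4 libraries, and 2220 were shared by 3. The 10456 positions shared by 2 libraries, the smallest number in the table, served as the comparison. Every library, controls included, came from CD-1 mouse retinas taken on postnatal day 0 and kept for 24 h in culture. The medium held horse serum at 20% and 4-thiouridine at 0.1 mM, and irradiation was at 365 nm, about 300 mJ/cm2. Argonaute antibody was used for 5 libraries and IgG for 2, each from 6 pooled retinas, so every value is that of whole, mixed retinal tissue after a day in culture. The table pools the Argonaute libraries. The IgG libraries and the values of single libraries were not used here; how deeply each position was read is unknown.

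Argonaute proteins carry microRNAs, short RNAs that guide them to messenger RNAs by pairing of the seed, the bases near the microRNA's 5′ end, with a complementary site. Bound messengers are translated less and lose their poly(A) tails, through TNRC6 proteins and the CCR4-NOT deadenylase. In PAR-CLIP, 4-thiouridine built into RNA is linked by ultraviolet light to the protein beside it, and the linked base is later read as a changed T. In neural tissue miR-124 and miR-9 are abundant microRNAs of neurons and neural progenitors, the cluster of miR-183, miR-96 and miR-182 is known from sensory cells including photoreceptors, and the miR-17 to miR-92 families are known from dividing cells.

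The sites that show the pattern best are printed first: for each of the 10 families with the most matches, the 3′ UTR 8mer of the first gene by symbol. Each stretch is 30 nt of transcript within a single exon (GENCODE M21, mm10 coordinates), 5′ to 3′, with the crosslinked T as base 11 and the match in capitals. An 8mer pairs with microRNA bases 2 to 8 and has an A opposite base 1; a 7mer-m8 lacks that A; a 7mer-A1 has the A but no pair at base 8; a 6mer pairs with bases 2 to 7 alone.
Aff4, miR-124, chr11:53416951-53416980, plus strand: tcatgtctggtGTGCCTTAaatcttaactt
Ccdc50, miR-17/20/93, chr16:27450045-27450074, plus strand: tgatgagccctGCACTTTAtgtcagcaatg
Crebrf, miR-15/16, chr17:26773894-26773923, plus strand: ttcctgccattTGCTGCTAaacttgggctg
Bfar, miR-26, chr16:13703566-13703595, plus strand: gtttggaaaatTACTTGAAataaaaaaaga
Ap1s2, miR-9, chrX:163928394-163928423, plus strand: cacaaatgtttACCAAAGAaaatagttagg
Mtpn, miR-181, chr6:35510802-35510831, minus strand: catgcaataatTGAATGTAcctcaaatttt
Btg1, miR-130 family, chr10:96619022-96619051, plus strand: tgcaggggaatTTGCACTAttacacttgaa
Btg2, miR-25/92, chr1:134076011-134076040, minus strand: tttgtagatgtGTGCAATAtttactgttct
Aatk, miR-182, chr11:120007450-120007479, minus strand: aagttattgTTGCCAAAgacatgtaaagta
Fndc3a, miR-30, chr14:72538446-72538475, minus strand: aatatactgttTGTTTACAttttatttaat
In 9 of these 10 sites the match begins on the base right after the crosslinked T. In Aatk, a neuronal kinase gene, it begins 1 nt before it, so that the crosslinked T is the second base of the match.

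The mature microRNAs of the same families, from RefSeq (GRCm38.p6), are shown for comparison with the sites, with seed bases 2 to 8 in capitals. They are read against the sites in reverse. The miR-124 motif searched was GTGCCTT.
miR-17-5p: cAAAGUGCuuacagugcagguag
miR-16-5p: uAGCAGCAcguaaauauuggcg
miR-26a-5p: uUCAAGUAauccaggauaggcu
miR-9-5p: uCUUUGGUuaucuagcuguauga
miR-181a-5p: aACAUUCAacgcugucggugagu
miR-130a-3p: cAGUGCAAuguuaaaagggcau
miR-92a-3p: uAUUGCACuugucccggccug
miR-182-5p: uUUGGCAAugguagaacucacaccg
miR-30a-5p: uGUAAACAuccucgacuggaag

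A seed match lay just after the crosslink at 268 of the 468 positions shared by 5 libraries that had a full window of exonic sequence (57.3%, exact Clopper-Pearson interval 52.6 to 61.8). The match counted was a 7mer-m8 or 8mer of any of 53 microRNA families, whose first base lay between 1 nt upstream and 3 nt downstream of the crosslinked T, on the transcript strand. At positions shared by 2 libraries the share was 23.5% (22.5 to 24.4; 1811 of 7721), and over all positions it was 30.1%. The odds ratio was 4.37 (interval 3.61 to 5.29), with p = 2.12e-51 in Fisher's exact test, two-sided. Against only those 2-library positions that lie in genes holding a 5-library position, a comparison added after seeing the data, 57.3% stood beside 15.2% and the odds ratio was 7.5. Against positions shared by 3 libraries it was 1.91. These tests count positions, which share genes and are not replicates, so p-values and intervals cover counting error only. How strongly an RNA was expressed and how deeply it was read also bear on how many libraries hold a position; neither was measured here, and their part in any of the differences was not tested.

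The longest matches differed most. 8mers made up 31.8% of positions in 5 libraries (149 positions) and 11.7% in 2. 7mer-m8 matches made up 25.4% and 11.7%, and 7mer-A1 matches 12.4% and 8.46%. The share of 6mers was close, 6.62% and 7.68%. No match of 6 nt or more was found at 23.7% of positions in 5 libraries (111 positions) and at 60.4% in 2. Positions in 3 and 4 libraries lay between, with a 7mer-m8 or 8mer at 41.2% and 50.8%.

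**Figure D1:**
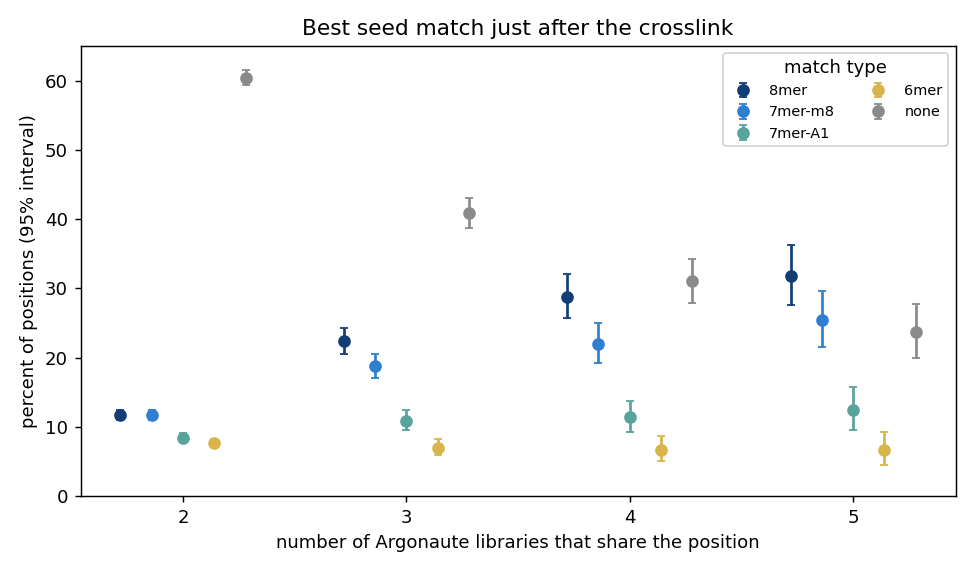
Percent of exonic positions (y axis) by best seed match just after the crosslink, against the number of Argonaute libraries that share the position (x axis); points are shares and bars exact 95% intervals. From 2 to 5 libraries, 8mers go from 11.7% to 31.8% while positions with no match go from 60.4% to 23.7%.

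The match lay mostly at a single place. Best matches were taken 8mer first, then by the start nearest to 1 nt after the crosslink, a rule that favours that start. Of the 268 best matches, 235 (87.7%) began exactly 1 nt after the crosslinked T, compared with 65.3% of the best matches at 2-library positions. Another 11 began 1 nt before it, 10 on it, 4 at 2 nt and 8 at 3 nt after it. Counted at each start by itself, matches began 1 nt after the crosslink at 50.6% of 5-library and 15.6% of 2-library positions. The shares were 5.39% and 3.18% for 1 nt before it, and 5.6% and 4.22% on it. Farther from the crosslink, matches began at a median of 0.647% of 5-library positions per start (range 0.216 to 2.37) and 0.652% of 2-library positions, so the level away from the crosslink was close in both groups. A mirror window of the same width before the crosslink held a match at 2.56% of 5-library and 3.63% of 2-library positions.

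**Figure D2:**
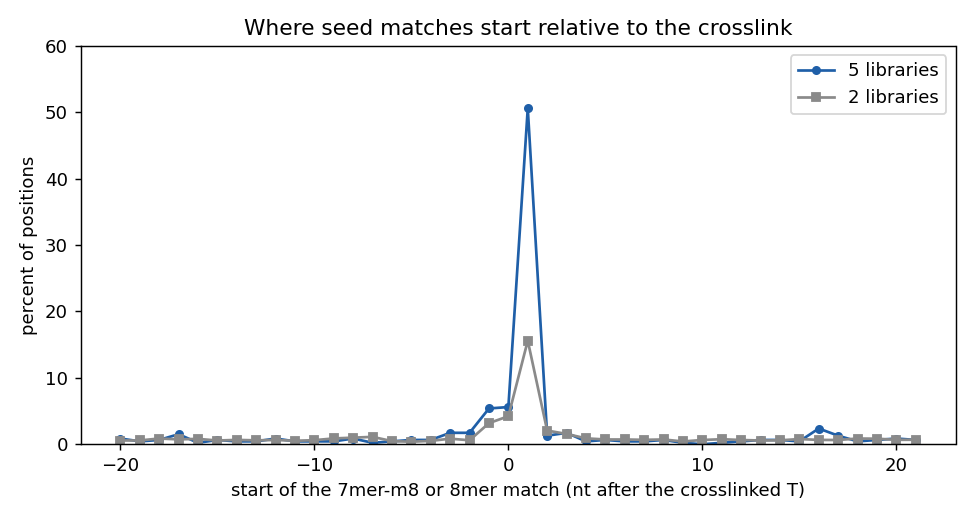
Percent of positions (y axis) with a 7mer-m8 or 8mer match of any family starting at each distance from the crosslinked T (x axis, nt), for positions in 5 libraries (blue circles) and 2 libraries (grey squares). Both curves peak 1 nt after the crosslink and are near 0.65% away from it.

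The best matches came from 24 of the 53 families, and the 10 leading ones held 79.1% of the 268 best matches. Families known from neural tissue had 39.9% of the best matches and broadly expressed families 60.1%. The same split is not given for 2-library positions. Families known from other tissues had 0, as did miR-216 and miR-217. These families were rare in 2 libraries too, at most 0.0648% for a family of other tissues (miR-133) and 0.194% for miR-216a. A count of 0 among 468 positions thus does not set 5-library positions apart. By a test of each family's own share, 9 of 53 families (17%) were higher in 5 than in 2 libraries and 0 were lower (two-sided Fisher's exact tests, Benjamini-Hochberg adjusted over the 53). With positions in 3 libraries as the comparison in place of 2, miR-124 and the miR-130 family alone passed.

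miR-124 led, with matches at 41 positions (8.76%, 6.36 to 11.7) and at 2.11% of 2-library positions, an odds ratio of 4.45 (exact adjusted p = 3.75e-11). All 41 began 1 nt after the crosslink, and 37 lay in 3′ UTRs. Their 40 genes included Aff4, a scaffold of the super elongation complex, Fam199x and Lipo3. Ddx3x alone held 2. Only 11 of the 41 were 8mers.

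The miR-17/20/93 family (GCACTTT) matched 32 positions (6.84% against 1.81%, odds ratio 3.97, exact adjusted p = 5.41e-08). Among its genes were Ccdc50, an ubiquitin-binding protein gene, Cep120, which encodes a centriole protein, and Cnot6l, which encodes a catalytic subunit of the deadenylase that acts on microRNA targets. miR-18 (GCACCTT), from the same clusters, matched 8 (odds ratio 3.52, exact adjusted p = 0.0241), and miR-25/92 (GTGCAAT) matched 14 (odds ratio 3.52, exact adjusted p = 0.00131). With 1 position counted per gene, miR-25/92 (odds ratio 2.37, exact adjusted p = 0.109), miR-18 and miR-19 no longer passed, and in 3′ UTRs alone miR-25/92 (2.49, exact adjusted p = 0.0888) and miR-18 did not. The miR-25/92 genes included Cic, which encodes a transcriptional repressor, and Btg2, a gene of antiproliferative proteins, with 2 positions. miR-130 and miR-301, which share a seed (TTGCACT), matched 30 and miR-19 (TTTGCAC) 21, with odds ratios of 3.08 (exact adjusted p = 8.11e-06) and 2.68 (exact adjusted p = 0.00182). These letters overlap: 11 positions matched both miR-130 and miR-17/20/93, another 11 matched miR-130 and miR-19, and 30 positions in all matched several families. When each position was given to its best match, miR-130 kept 15 and miR-19 kept 6.

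miR-15/16 (TGCTGCT) matched 27 positions and miR-26 (TACTTGA) 24, with odds ratios of 3.6 (exact adjusted p = 2.42e-06) and 4.12 (exact adjusted p = 1.8e-06). The miR-15/16 genes included Arl8b, a GTPase of lysosome transport, Crebrf, a regulator of the CREB3 factors, and Ddx3x. Those of miR-26 included Bfar, an apoptosis regulator, the transcription factor Casz1 and the ubiquitin ligase adaptor Fem1c. Of the 24 miR-26 best matches 20 were 8mers, beside 11 of 41 for miR-124, a difference that was not tested. Rest, a gene of a repressor of neuronal genes, named after its values were seen, also held a miR-26 8mer.

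miR-9 (ACCAAAG) matched 19 positions (4.06% against 1.13%, odds ratio 3.71, exact adjusted p = 6.4e-05), and 10 of the 19 lay in coding sequence, with 8 in 3′ UTRs. For miR-182 it was 5 of 13, and in the remaining families together 22 of 236 (9.32%); these differences were not tested. At 2-library positions 46% of miR-9 and 45.2% of miR-182 matches were coding. For all families other than miR-9, the coding share was 25.1% at 2-library and 10.8% at 5-library positions. Counted in 3′ UTRs alone, miR-9 did not pass the test (odds ratio 2.31, exact adjusted p = 0.235). Eif4enif1, which encodes a transporter of the translation factor eIF4E, and Bend3, a gene of a chromatin repressor, were among the miR-9 genes. A further 17 of the 58 positions with a 7mer-A1 as best match were those of miR-9, including Amotl2 and Hes1.

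Among the 10 leading families, miR-182 (TTGCCAA) alone had most of its best matches in 5 libraries at a start other than 1 nt after the crosslink. It had 13 best matches, and 11 of them began 1 nt before the crosslink, as in Aatk; 1 began 1 nt after it. All 10 of its 7mer-A1 matches also began 1 nt before. The motif opens with a pair of T, the base that can be crosslinked. That of miR-9 holds no T, so a crosslink cannot fall within a 7mer-m8 or 8mer of miR-9. The miR-130 motif (TTGCACT) also opens with a pair of T. Of its 15 best matches 0 began 1 nt before and 12 began 1 nt after. With all its matches counted, 19 of its 30 matched positions had a start from 0 to 2 nt. The others began 1 nt before or 3 nt after the crosslink. The 0 depends on the rule for best matches, as 11 positions matched both miR-130 and miR-17/20/93. Between matches of the same type, that rule takes a miR-17/20/93 start 1 nt after over a miR-130 start 1 nt before. Whether the letters of a motif bear on the place of its matches was not tested. At 2-library positions 62.7% of miR-182 best matches began 1 nt before. Its share was 13 positions against 1.63% in 2 libraries and did not pass the test (odds ratio 1.72, exact adjusted p = 0.307). Eif5, a translation initiation factor gene, held a miR-182 8mer in coding sequence, and Fxr1, a relative of the fragile X protein gene, held 1 in the 3′ UTR.

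Other families did not pass in the main comparison. miR-181 (TGAATGT) matched 16 positions (odds ratio 1.65, exact adjusted p = 0.265), miR-30 (TGTTTAC) 12 (1.89, exact adjusted p = 0.181) and let-7 (CTACCTC) 11 (2.22, exact adjusted p = 0.104). miR-204 and miR-211, which share a seed (AAAGGGA), matched 6, all in 3′ UTRs and 5 of them 8mers (odds ratio 3.7, exact adjusted p = 0.053). miR-96 matched 1 position, in Thap12 (0.214% against 0.855%, exact adjusted p = 0.506). miR-27 matched 0, against 0.402% (exact adjusted p = 0.653).

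**Figure D3:**
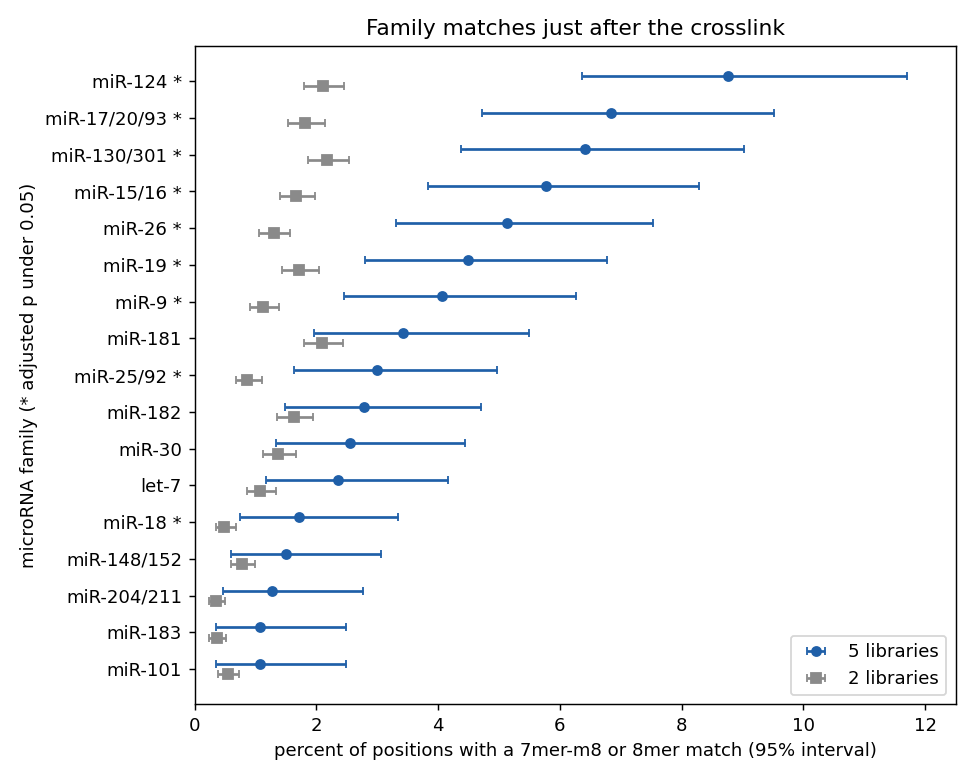
Percent of positions (x axis) with a 7mer-m8 or 8mer match for each microRNA family with at least 5 matches in 5 libraries (y axis), at positions in 5 libraries (blue circles) and 2 libraries (grey squares); bars are exact 95% intervals and a star marks an adjusted p under 0.05. The 9 starred families lie to the right of their grey squares, from 8.76% for miR-124 to 1.71% for miR-18.

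The 5-library positions lay mostly in 3′ UTRs, at 376 of 487 (77.2%, 73.2 to 80.9), compared with 47.1% of 2-library positions and 52.2% of all. The odds ratio was 3.81 (3.07 to 4.72; two-sided Fisher's exact test, Benjamini-Hochberg adjusted over 6 classes, exact adjusted p = 1.02e-39). Coding sequence held 64 positions (odds ratio 0.54, exact adjusted p = 2.97e-06) and introns 7 (odds ratio 0.0519, exact adjusted p = 9.52e-40). Noncoding exons held 28 (5.75% against 4.21%, odds ratio 1.39, 0.937 to 2.06, exact adjusted p = 0.129); within the same genes the odds ratio was below 1, at 0.648. Intergenic sequence held 10 (2.05% against 4.06%, odds ratio 0.496, exact adjusted p = 0.0353) and 5′ UTRs 2, in Kbtbd2 and Igf2. Among 5-library positions, a 7mer-m8 or 8mer was found at 37 of 64 in coding sequence (57.8%, 44.8 to 70.1) and at 58.6% in 3′ UTRs (53.4 to 63.6). At 2-library positions these shares were 20.6% and 25.8%.

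Coding sites are shown because 15 of their 20 8mers began 1 nt after the crosslink, the place most common in 3′ UTRs. The first 8mers by symbol whose printed stretch lies in a single exon are in 2610008E11Rik, in Arl8b and in Cnot6, which encodes another catalytic subunit of the deadenylase.
2610008E11Rik, miR-181, chr10:79067389-79067418, minus strand, exon 6 of 6: gaaaagcctttTGAATGTAatgaatgctct
Arl8b, miR-15/16, chr6:108818563-108818592, plus strand, exon 6 of 7: atagagaaattTGCTGCTAttcaatttctt
Cnot6, miR-19, chr11:49675246-49675275, minus strand, exon 12 of 12: acttctcacttTTTGCACAattggagctct
In each of them the match began 1 nt after the crosslink, as in the 3′ UTR sites above other than Aatk.

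Within 3′ UTRs, 5-library positions lay at a median of 936 nt from the last coding base (quartiles 389 and 1738; 2-library positions, 960). The UTRs holding them had a median length of 2551 nt, against 2636 nt. Within 500 nt of the last coding base lay 33.8% and 31.3% (odds ratio 1.12, 0.898 to 1.4, exact adjusted p = 0.655), and within 500 nt of the transcript end 29.5% and 28.5% (odds ratio 1.05, 0.836 to 1.32, exact adjusted p = 0.678). Against 2-library positions of the same genes both differences passed the test: 33.8% stood beside 23.7% near the coding end (odds ratio 1.65, exact adjusted p = 0.000559) and 29.5% beside 23% near the transcript end (odds ratio 1.41, exact adjusted p = 0.0154). Whether the ends held more of them thus depended on which 2-library positions they were compared with.

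Most genes held 1 such position: 370 genes had 1, 37 had 2, 5 had 3, Ddx3x and Neurod1 had 4, and Malat1 had 10. Genes with a 5-library position had a median of 5 deposited positions of any score (quartiles 2 and 8), and genes without one had a median of 1 (1 to 3). In 54 of the 415 genes the 5-library position was the only one deposited. Another deposited position lay within 20 nt of 14.2% of 5-library positions, compared with 5.79% of 2-library positions.

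Ddx3x encodes an RNA helicase that unwinds messenger RNA during translation. Its 4 positions lay 310, 1464, 1795 and 1919 nt into a 2563 nt 3′ UTR, and every one had a 7mer-m8 or 8mer: miR-124 at 310 and 1464, miR-15/16 (an 8mer) at 1795 and miR-181 at 1919. Mybl1, which encodes a Myb-family factor, had 3, all 8mers, for miR-181 at 650 nt, miR-130 at 902 nt and miR-15/16 at 1437 nt. Btg2 had 2, at 1041 and 1342 nt, both 8mers of miR-25/92, beside 16 other positions in fewer libraries. These 3 genes are described together because every 5-library position in them had a 7mer-m8 or 8mer.

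Neurod1, a proneural factor gene of amacrine cells and photoreceptors, differed from these. Its 4 positions lay 157, 867, 884 and 901 nt into a 1446 nt 3′ UTR, 3 of them spaced by 17 nt. The one at 901 nt had a 7mer-m8, of miR-130, and the other 3 had no match of any family searched. Casz1, a zinc finger factor of the photoreceptor lineage, had a miR-26 8mer at 2155 nt, a miR-26 7mer-A1 at 961 nt and no match at 1964 nt. Map1b, a microtubule protein gene of axons, had a miR-25/92 8mer at 4239 nt, near the end of a 4363 nt UTR; of its other 2, the one at 2257 nt had a 7mer-A1 of miR-27 and the one at 984 nt a 6mer.

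Fndc3a, which encodes a fibronectin type III domain protein, had a miR-30 8mer at 1705 nt and weaker matches at 2025 and 2045 nt. Rnf111, a ubiquitin ligase gene of TGF-beta signalling, had a miR-19 8mer at 270 nt, a 7mer-A1 at 236 nt and no match at 786 nt. Aff4 held its miR-124 8mer in the 3′ UTR and a miR-9 7mer-m8 in coding sequence. Amotl2, a regulator of the Hippo pathway, had a miR-15/16 7mer-m8 at 1656 nt and a miR-9 7mer-A1 at 1562 nt. Bbx, an HMG-box factor gene, had a miR-18 8mer at 2808 nt and a miR-9 7mer-A1 at 4309 nt. Ap1s2, a clathrin adaptor gene, had a miR-9 8mer at 1448 nt and no match at 1236 nt, and Cdkn1b, which encodes the cell cycle inhibitor p27, had a miR-190 7mer-m8 at 2249 nt and no match 18 nt downstream. In 6 of these 7 genes, all but Aff4, a position with a 7mer-m8 or 8mer stood beside one that had neither.

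**Figure D4:**
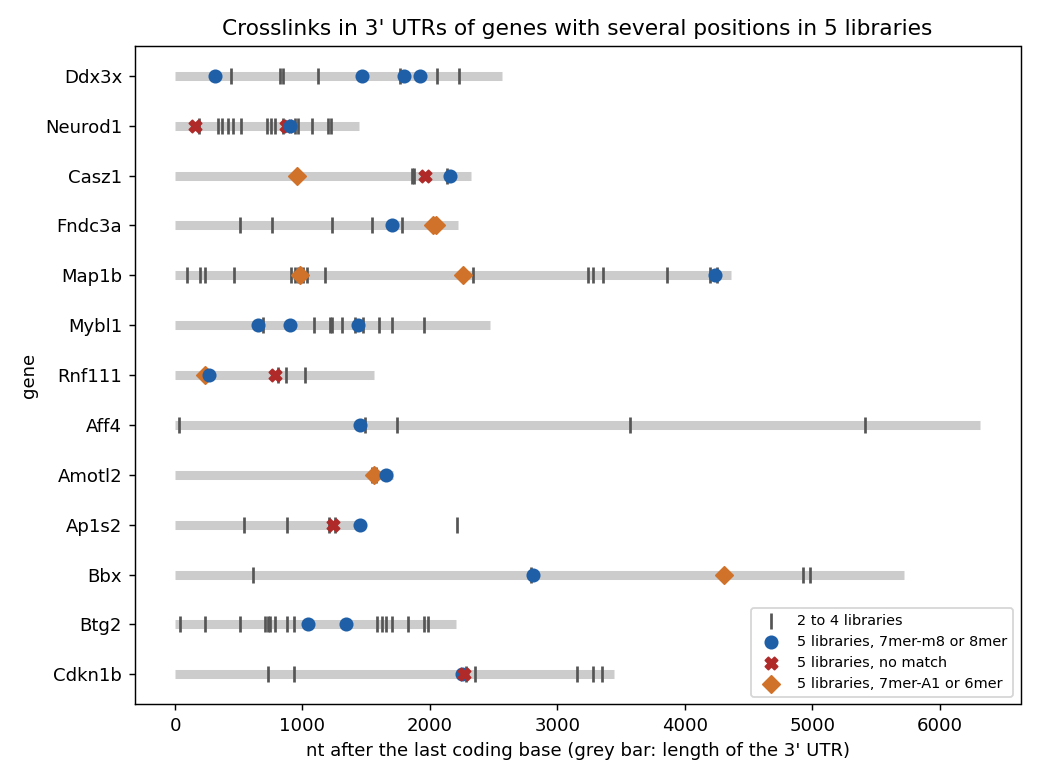
Crosslinks along the 3′ UTR of 13 genes with several positions in 5 libraries (y axis), by distance from the last coding base (x axis, nt); grey bars are UTR lengths, filled symbols positions in 5 libraries by match type and ticks positions in 2 to 4 libraries. All 4 positions of Ddx3x and all 3 of Mybl1 have a 7mer-m8 or 8mer, while 3 of 4 in Neurod1 have no match.

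The 111 positions with no match of 6 nt to the seed lay in 3′ UTRs in 81 cases, in coding sequence in 15 and in noncoding exons in 14. Of them, 26 (23.4%) paired with microRNA bases 3 to 8 of a searched family, compared with 12% of such positions in 2 libraries. miR-124 gave 10 of these offset pairs (GTGCCT) and miR-9 gave 9 (ACCAAA). That left 85 of 468 positions (18.2%) with no pairing of either kind, compared with 53.2% in 2 libraries. The letters TGATTG began right after the crosslink at 6 of the 111 and at 1.2% of the 2-library positions without a match. The sites of 3 genes that had several 5-library positions are printed as examples without a seed match.
Ap1s2, chrX:163928182-163928211, plus strand: gctagtacctttatgattgtatttttctgt
Casz1, chr4:148954522-148954551, plus strand: gacccaccaatgctctttttaatgttttat
Cdkn1b, chr6:134924328-134924357, plus strand: gctgactccattgaatggacatcctgtata
The Cdkn1b site was among the 26, with an offset pair for miR-181, and those of Ap1s2 and Casz1 had none.

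Outside messenger RNA exons, Malat1, a nuclear noncoding RNA, held 10 of the 28 noncoding-exon positions. Of these, 4 had a 7mer-m8 or 8mer, for miR-15/16, miR-181, miR-26 and miR-101. 1700020I14Rik, a long noncoding RNA, held 2, with a miR-25/92 8mer and a miR-30 7mer-m8. H19, the imprinted noncoding RNA, had a miR-130 8mer, and Tug1, a noncoding RNA known from retinal development, a miR-9 8mer; both were picked after their values were seen, as were the RNAs that follow. The Y RNAs Rny1 and Rny3 and the small nucleolar RNA Snord73a held positions without matches, as did a noncoding exon of Rpl7a, a ribosomal protein gene, with 2. The 2 microRNA hairpins were those of Mir182 and Mir181b-2. The linked base there was base 18 of miR-182-5p and base 9 of miR-181b-5p, in the mature strand itself. Both microRNAs belong to families whose seed matches are described above.

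The genes were grouped by 19 lists, which held 158 of the 415 genes (38.1%). These are counts, and positions of a list's genes are not independent of how strongly those genes are expressed. Of crosslinked genes in general, 8.4% had a 5-library position. The microRNA pathway stood at 11 of 34 (32.4%): Ago2, an Argonaute gene itself, Dicer1, which encodes the nuclease that makes microRNAs, Tnrc6b, which links Argonaute to the deadenylase, the deadenylase subunit genes Cnot6, Cnot6l and Cnot7, the decapping factor genes Dcp1a and Lsm14a, and Btg1, Btg2 and Tob2, whose proteins bind the deadenylase. They held 14 positions (2.87% of 5-library positions, 1.23% of 2-library positions), 13 of them in 3′ UTRs and 13 with a 7mer-m8 or 8mer. The exception in match was Dcp1a, and the exception in place was Cnot6. Ago2, Cnot6l and Cnot7 each had a miR-17/20/93 match. Dicer1 had miR-130 at 1236 nt and miR-181 at 1779 nt of its 3′ UTR, and Tnrc6b had miR-26 at 241 nt and miR-148 at 416 nt.

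Retinal and neuronal transcription factors stood at 26 of 96 (27.1%), with 41 positions (8.42% against 4.13%), of which 39 lay in 3′ UTRs. Of the 41, 21 had a 7mer-m8 or 8mer, near the 57.3% of all 5-library positions. Those without included Hes1, a Notch effector gene, with a miR-9 7mer-A1 at 285 nt. Foxn3, the forkhead repressor gene the series is about, held 1, at 236 nt of a 6192 nt 3′ UTR, with a miR-135 8mer that began 3 nt after the crosslink. It was among 14 of the 487 positions (2.87%) linked to a deposited miR-216 site, beside 2.91% of 2-library positions.

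Signalling lists were small. The TGF-beta and BMP pathway stood at 6 of 24 genes, with 9 positions, and 6 of them had a 7mer-m8 or 8mer. They included Ski, a repressor of the pathway, Smad2 and Smad4, which carry its signal to the nucleus, and Rnf111. The Notch pathway stood at 5 of 21, with Dll1, a ligand, Lfng, which modifies Notch receptors, the coactivator Maml1 and Hes1, and 1 of 5 positions had a 7mer-m8 or 8mer, that of the receptor gene Notch2 (miR-18). The Wnt pathway stood at 6 of 29, among them Apc and Csnk1a1, which mark beta-catenin for destruction, the receptor gene Fzd3 and Dkk3. The 2 Csnk1a1 positions lay 19 nt apart, with matches for miR-153 and miR-17/20/93.

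Chromatin regulators stood at 16 of 100, including Arid2, Ash1l, Asxl1 and Brd1, with 3.9% of 5-library and 3.37% of 2-library positions. RNA-binding and splicing proteins stood at 13 of 97, including Celf2, Larp1 and Atxn1l, and 8 of their 16 positions had a 7mer-m8 or 8mer. They held 3.29% of 5-library and 2.96% of 2-library positions. Translation factors stood at 4 of 26 (Eif4b, Eif4enif1, Eif4g2 and Eif5), with 1.03% and 0.507%. Protein kinases and phosphatases stood at 16 of 131, including Camk2n1, an inhibitor of CaM kinase II, Dusp6, which switches off ERK, and Hipk1. Their shares of positions were 3.49% and 2.99%.

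Near the 8.4% of all crosslinked genes were axon guidance genes (5 of 48, including Dpysl2, Epha4, Ncam1 and Srgap1), cell cycle genes (5 of 49, including Ccnd1, Cdk13 and Ppp2r1a), the cytoskeleton (7 of 70, including Cfl2, Clasp2 and Kif5b), solute carriers (7 of 75, including Slc16a1, Slc1a2 and Slc30a1), ubiquitin ligases and deubiquitinases (15 of 167, including Fbxo5, Klhl28 and Klhl9) and Zfp genes (11 of 135, including Zfp266, Zfp280b, Zfp292 and Zfp36l1). Vesicle trafficking genes stood at 7 of 103, including Arf3, Arfgef1 and Rab1a. RNA helicases stood at 1 of 17, Ddx3x, and ribosomal proteins at 1 of 11. Adhesion and synaptic proteins stood lowest, at 3 of 53 (5.66%), namely Homer1, Ptprd and Shank2. They held 0.616% of 5-library positions and 2.45% of 2-library positions, and 0 of their 2 positions with a sequence window had a 7mer-m8 or 8mer.

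**Figure D5:**
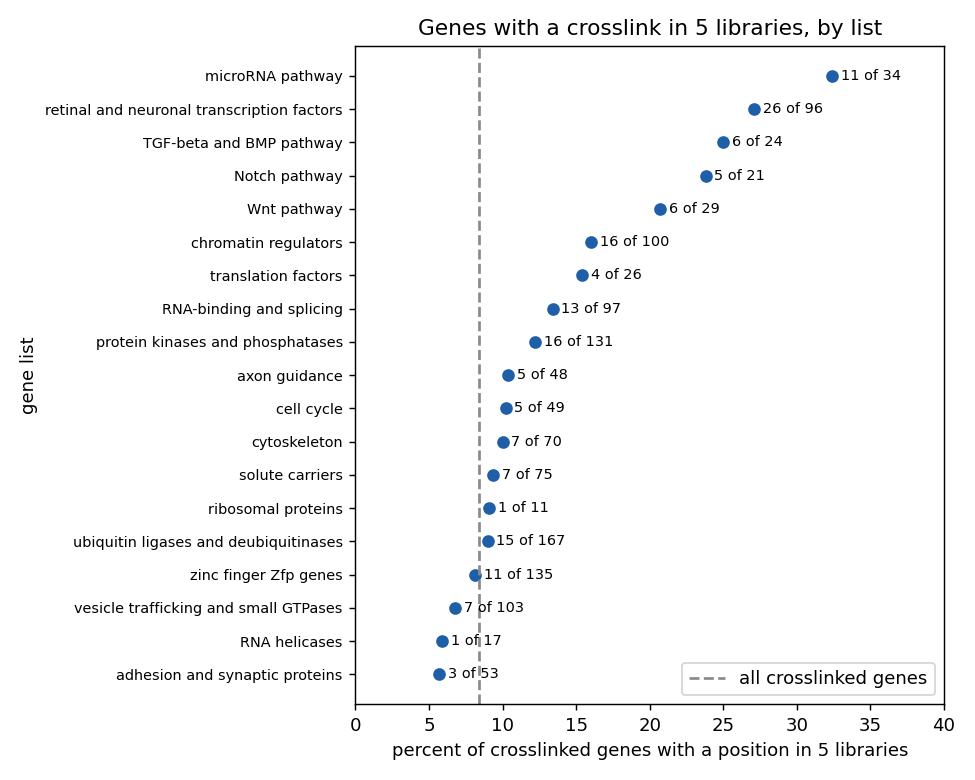
Percent of crosslinked genes (x axis) that hold a position in 5 libraries, for each of 19 gene lists (y axis), with the counts beside each point; the dashed line is the 8.4% of all crosslinked genes. The microRNA pathway (11 of 34) and retinal and neuronal transcription factors (26 of 96) lie farthest to the right, and adhesion and synaptic proteins (3 of 53) farthest to the left.

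Markers of retinal cells and of other cells were also counted. As lists were chosen with earlier results of these data known, the counts are no independent check of the tissue. Of 61 marker genes, 39 held a crosslink and 11 a 5-library position, while of 29 markers of pigment epithelium, microglia, vessels, astrocytes, lens and blood, 2 held a crosslink (Kdr and Pdgfra) and 0 a 5-library position. Among photoreceptor markers 5 of 9 crosslinked genes held 14 such positions (Rorb, Neurod1, Prdm1, Casz1 and Mybl1). Amacrine markers had 3 of 7 (Tfap2b, Neurod4 and Pax6), progenitor markers 2 of 9 (Ccnd1 and Hes1) and horizontal cell markers 1 of 3 (Onecut2). Ganglion cell markers had 0 of 9 and bipolar cell markers 0 of 3, numbers too small to set apart from the 8.4% of all crosslinked genes. Fewer cells of a type and less RNA per cell cannot be told apart in whole tissue.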

How the data were processed

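Of 5 Argonaute and 2 IgG libraries, only the pooled Argonaute table was used. Its score, per the file headers, is the number of samples that hold the crosslink; the authors deposited scores of 2 to 5 and no read counts. Tools named in the submitters' processing notes are STAR, bedtools and CASAVA 1.8.2, with the mm10 build; which steps and settings they served is not given in the sources used here. GENCODE M21 gave each position a class on its own strand; a 3′ UTR took precedence over coding sequence, then came 5′ UTR, exons of noncoding transcripts, introns and intergenic sequence. Positions outside exons were not searched for sequence, and 19 of 487 had no full window; all 10989 exonic positions fell on T. Of 56 microRNA families planned, 53 were searched; miR-122, miR-143 and miR-145 were not. Where 13 of the 487 positions lay in several genes, 1 gene was taken.

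Fisher's exact tests were run in scipy 1.17.1 with pandas 2.3.3 and Python 3.11.15 at 0.05, after being tested on simulated data; odds-ratio intervals are 95% Woolf intervals. Positions, lists, families and tests were chosen with earlier results of these data known. Genes named were Foxn3, up to 15 genes with several 5-library positions, 3 genes for each of 10 families and up to 4 per list; any others were picked after their values were seen, and some genes the rule took are not reported here. Alternatives changed the counting of close positions and of positions per gene, the score threshold, the comparison positions, the match window and type, and the distance from UTR ends.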

Additional observations from a re-analysis of the deposited data

How the results depend on the processing

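No paired analysis was possible because values of all 5 libraries are pooled in 1 table; leaving out single libraries could not be done either. The direction turned in 7 cases; the cause was not tested. For noncoding exons the odds ratio was 0.648 against 2-library positions of the same genes and 0.916 in protein-coding genes only, and near the 3′ UTR start it was 0.773 within 250 nt. Near the transcript end it was 0.763 with 1 position per gene. It was 0.701 for miR-182 with starts from 0 to 2 nt, and 0.923 for miR-30 against 3-library positions. The last of the 7 was the mirror window before the crosslink (0.699, interval 0.389 to 1.26). That window is a control and not another setting of the match comparison. Against 2-library positions of the same genes, an alternative chosen after seeing the data, both ends of the 3′ UTR passed the test (1.65 and 1.41). Against 3-library positions, 2 of 53 families passed in place of 9; other settings gave 6 to 12. Of the other alternatives, 29 odds ratios of the main comparisons stayed on their side of the threshold, as did 83 for single families and classes, while 9 of the latter no longer passed and 4 newly passed. Read depth is unknown, and few matches leave wide intervals, as for miR-183 with 5 (odds ratio 2.97, 1.14 to 7.72; exact adjusted p = 0.166).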

Other observations

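The 10 intergenic and 7 intronic positions shared by 5 libraries had no sequence test, and those named here were picked after their values were seen. Several lay a short way past an annotated gene end on the same strand. Map3k3, which encodes a kinase of MAP kinase cascades, had 1 at 126 nt past its end. Pde4d, a cyclic AMP phosphodiesterase gene, had 2, at 1066 and 1383 nt, and Onecut1, a horizontal cell factor gene, had 1 at 1969 nt. Others were far from any upstream protein-coding gene, such as 1 at 648130 nt past Prdm2. The intronic positions lay in Lyst, 1810013L24Rik, Slc1a2, E130308A19Rik, Cpsf6, Hmbox1 and Ptprd, with 1 each.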
